A study of Arabidopsis thaliana with 4 samples.

Results

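The bleomycin response of wild type Arabidopsis thaliana, accession Ws-2, was read from 2 of the 4 arrays of the series, which were chosen by their labels. One array held wild type plants (stock N1601) given bleomycin at 1 mg per litre over 3 days, and the other held wild type plants that did not receive the drug. RNA of 20 whole plants was pooled for each array, so there was 1 array per group and nothing to measure the spread between pools. The other 2 arrays held the ku80 mutant, which carries a T-DNA insert in KU80, with and without the same treatment. They share no array with the wild type comparison, but all 4 arrays were used to set the common scale. Apart from that, the ku80 values are only set beside the wild type ones. All plants were at growth stage 1.06 and were raised on MS medium at 23 °C with 16 hours of light. Differences are given as values with no test and no p-value, and "higher" or "lower" states only where the bleomycin array stood relative to the untreated one. In RNA from whole plants, fewer cells of a type and less RNA per cell cannot be told apart.

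Bleomycin binds DNA and, with a metal ion and oxygen, cuts its strands, leaving breaks that plants repair by end joining or by recombination. Arabidopsis cells answer such breaks through the ATM and ATR kinases and the transcription factor SOG1, which turn on repair genes and hold the cell cycle. The same chemistry releases reactive oxygen, so genes of redox defence, of protein repair and removal, and of growth are read beside the repair genes below.

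Each value was an intensity, the brightness of 1 probe set, after every array had been put on a common scale. Values under 28 were raised to 28, called the floor here, and a ratio with 1 array at the floor is a lower bound, written "at least". Of 22746 probe sets 14858 were above the floor on at least 1 wild type array, and these were counted as measured. Gene names were available for 54.2% of them, which gave 7986 measured genes with 1 probe set each. Many well-known genes are unnamed in the table used, so a list of genes below covers only its named members, and most genes are given by their locus code.

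The 2 wild type arrays also differed in probe sets that do not measure plant genes, and these values stand beside every result below. Bacterial and phage spike-in control probe sets above 28 on both arrays, 14 in all, were 1.38 to 2.12 times as bright on the bleomycin array as on the untreated one, and 13 of them were dimmest on the untreated wild type array among all 4 arrays. The standard deviation of the scanner background was 13.6 on the bleomycin array and 7.06 on the untreated array, while its mean was 107 on both. Plastid-encoded genes, of which 53 of 68 lay below 0, were left out of the bins by brightness and gene span that follow. Other bright plant genes were shifted towards bleomycin: the median log2 ratio was 0.01 for genes with a mean intensity of up to 50, 0.16 between 200 and 400, 0.34 between 400 and 800, and 0.49 above 800. The shift also followed gene span, from annotated start to end, with a median of 0.20 for genes of up to 1000 bases and -0.40 for genes over 6000 bases. In ku80 the same bins had medians of -0.06 above intensity 800, -0.03 up to 1000 bases and 0.00 over 6000 bases. Across 7887 genes, which are not replicates, Spearman's rho between span and log2 ratio was -0.22 in wild type and 0.05 in ku80. For many lists of bright genes the median with the brightness trend subtracted is given as well. The part that brightness and gene span play in the lists below was not tested beyond that.

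**Figure D1:**
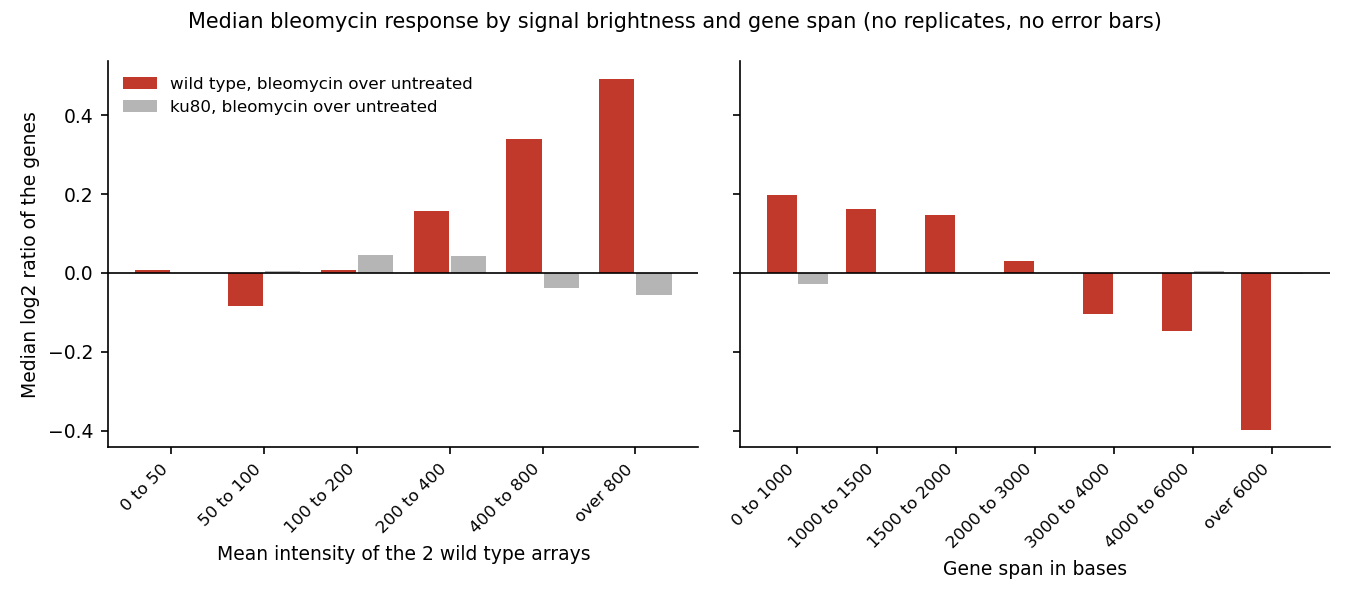
Bars give the median log2 ratio of bleomycin over untreated for genes binned by mean intensity (left panel) and by gene span in bases (right panel), in wild type (red) and in ku80 (grey), with no error bars because each group had 1 array. Plastid-encoded genes were left out of the bins. The wild type bars climb to 0.49 in the brightest bin and drop to -0.40 in the bin of the longest genes, while the ku80 bars stay near 0.

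Organ markers gave a limited check of the tissue. The leaf gene RCA, for Rubisco activase, stood at 1993 with bleomycin and 1893 without. The root hair expansin EXPA7 was at 32.0 with bleomycin and at the floor without. FMA, which drives guard cell fate, was at 34.7 with bleomycin and 74.5 without (log2 -1.10). Markers of pollen, seed and flower had no named probe set among those used here.

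The response reached over the whole range of intensities but was 2-fold or more for a minority of probe sets. Higher with bleomycin by 2-fold or more were 842 probe sets (5.67%), while 1286 (8.66%) were lower by as much, and 12730 (85.7%) moved by less than 2-fold. The bands thinned quickly: 748 probe sets were 2- to 4-fold higher, 73 were 4- to 8-fold higher and 21 at least 8-fold higher, against 1147, 126 and 13 in the same bands of lower probe sets. Among named genes the shares were 5.87% higher and 7.34% lower, and these are the background for each count of list members below. With the brightness trend subtracted they were 6.27% and 6.11%. In ku80 2.3% of the same genes were 2-fold higher and 5.13% lower. The untreated wild type array was the lowest of the 4 arrays for 86.1% of the genes at least 2-fold higher and the highest of 4 for 86.7% of the genes at least 2-fold lower, against 26.7% and 30.4% of all measured genes. Part of that follows from the choice of genes by a ratio to that array.

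**Figure D2:**
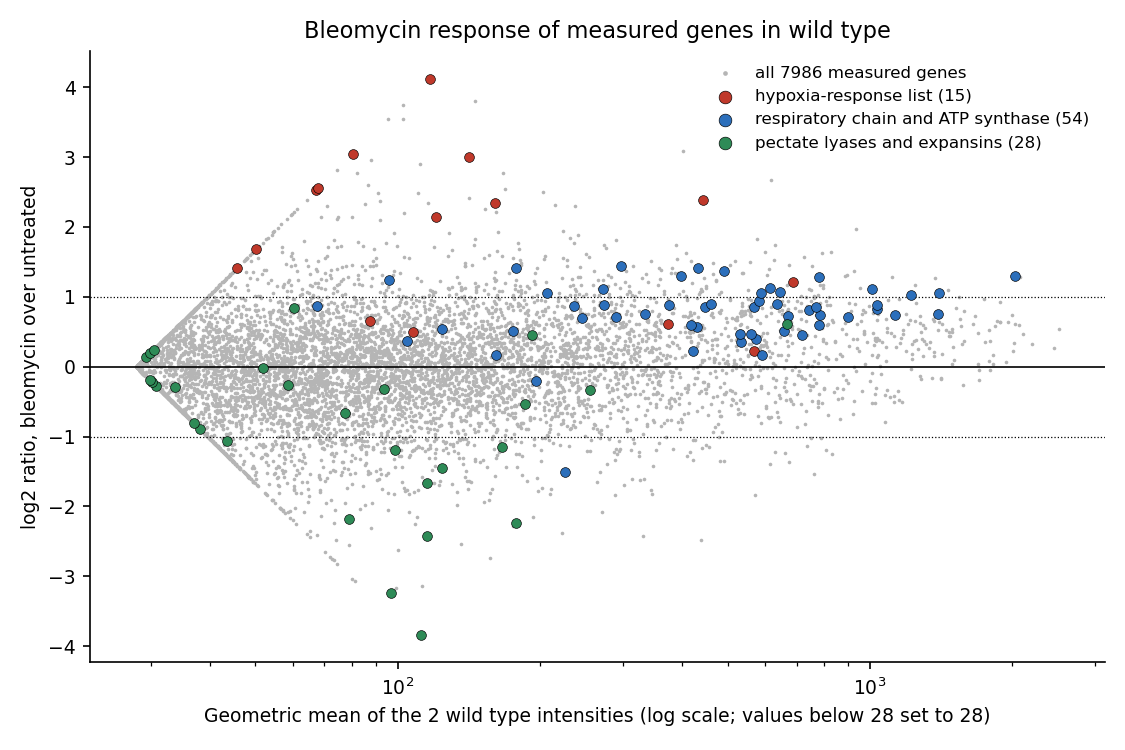
Each point is 1 measured gene, with the geometric mean of its 2 wild type intensities on the horizontal log axis and the log2 ratio of bleomycin over untreated on the vertical axis; dotted lines mark 2-fold. Hypoxia-response genes (red) lie above 0 with a median of 2.15, respiratory chain and ATP synthase genes (blue) form a narrow band with a median of 0.84, and several pectate lyases and expansins (green) lie far below 0.

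The few DNA repair genes that were named and listed had a median near 0. Of 109 listed repair and damage-response genes 24 had a name in the table and 12 were measured, with a median log2 ratio of -0.03, 6 above 0 and 6 below. None was 2-fold higher and 1 was 2-fold lower. The exception was INO80, a chromatin remodeller that takes part in recombination, at 39.3 with bleomycin and 118 without. SIM, an inhibitor of cyclin-dependent kinases that promotes endoreduplication, had the highest ratio on the list, with 192 on the bleomycin array and 102 on the untreated array (log2 0.91). ATLIG4, the ligase of end joining, stood at 47.2 with bleomycin and 36.7 without (log2 0.36), and RAD9 and ATMND1, a checkpoint gene and a recombination gene, stood at 31.1 and 46.2 with bleomycin and at the floor without. Most of these genes were dim, with a median intensity of 39.4 with bleomycin and 43.3 without, close to the floor. Many of the standard markers of the SOG1 response are not named in the table and were not read here.

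Genes of cell division and chromatin supply were lower. The 10 measured members of that list, of 14 named, lay below 0, 3 of them by 2-fold or more, with a median of -0.48 and -0.40 after the brightness trend was subtracted. Only 6 of the 10 were above the floor on both arrays. The others were at the floor with bleomycin, so they could only be below 0. The kinase gene AUR1, which acts on the mitotic spindle and cell plate, was at 39.3 with bleomycin and 83.4 without. The histone H2B gene HTB2 was at the floor with bleomycin and at 69.7 without, at least 2.49-fold lower, and 3xHMG-box2, which binds mitotic chromosomes, was at least 2.81-fold lower. Other histone genes differed less, with HTB1 at 153 and 201 and HTB4 at 280 and 333, bleomycin first in each pair. Tubulin and actin genes were mixed: 3 of 8 were 2-fold lower, among them TUB7 (92.7 with bleomycin, 240 without), TUA6 (552 with, 1125 without) and ACT11 (36.6 with, 89.7 without), while TUB9 and TUA1 were higher by 0.29 and 0.44 on the log2 scale.

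Low-oxygen genes had the highest median of the 46 lists at the floor of 28. Bounds count as values in that median, which was 1.22 over genes above the floor on both arrays, against 1.69 for the 3 senescence-associated genes. The list holds genes that plants induce when oxygen is short, and all 15 measured members were higher with bleomycin, 11 by 2-fold or more, with a median log2 ratio of 2.15. Only 9 of the 15 were above the floor on both arrays. The others were at the floor without bleomycin, so they could only be higher. AT3G29970, a B12D-type protein gene, had an intensity of 489 with bleomycin and lay at the floor without it, at least 17.5-fold higher. AT4G10270 and AT4G33560, which encode short wound-response family proteins, stood at 400 and 162 with bleomycin, against 50.0 and the floor without. AT2G17850, for a rhodanese-like protein, was at least 8.25-fold higher. AT3G03270, a universal stress protein gene, had 1013 with bleomycin and 193 without. PDC2, for pyruvate decarboxylase, the first step of ethanol fermentation, differed little, with 460 with bleomycin and 302 without, and CML38, a calmodulin-like gene, had 617 with and 525 without.

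The untreated wild type array mostly held the lowest values of these genes. In 13 of the 15 genes it was the lowest of all 4 arrays. That array was lowest for 26.7% of all measured genes and for 86.1% of the genes at least 2-fold higher. These shares also stand beside the same kind of count for the lists below. The list's median intensity was 254 with bleomycin and 57.4 without in wild type, and 221 with bleomycin and 322 without in ku80. In ku80 the median log2 ratio was -0.59 and 1 of the 15 genes was above 0. AT1G19530, for example, had intensities of 362 with bleomycin and 71.1 without in wild type, and of 148 with bleomycin and 490 without in ku80. Between the 2 untreated arrays the median difference was 2.13 on the log2 scale, ku80 over wild type. With 1 pool per group, the drug and the state of that untreated wild type pool cannot be told apart for these genes.

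**Figure D3:**
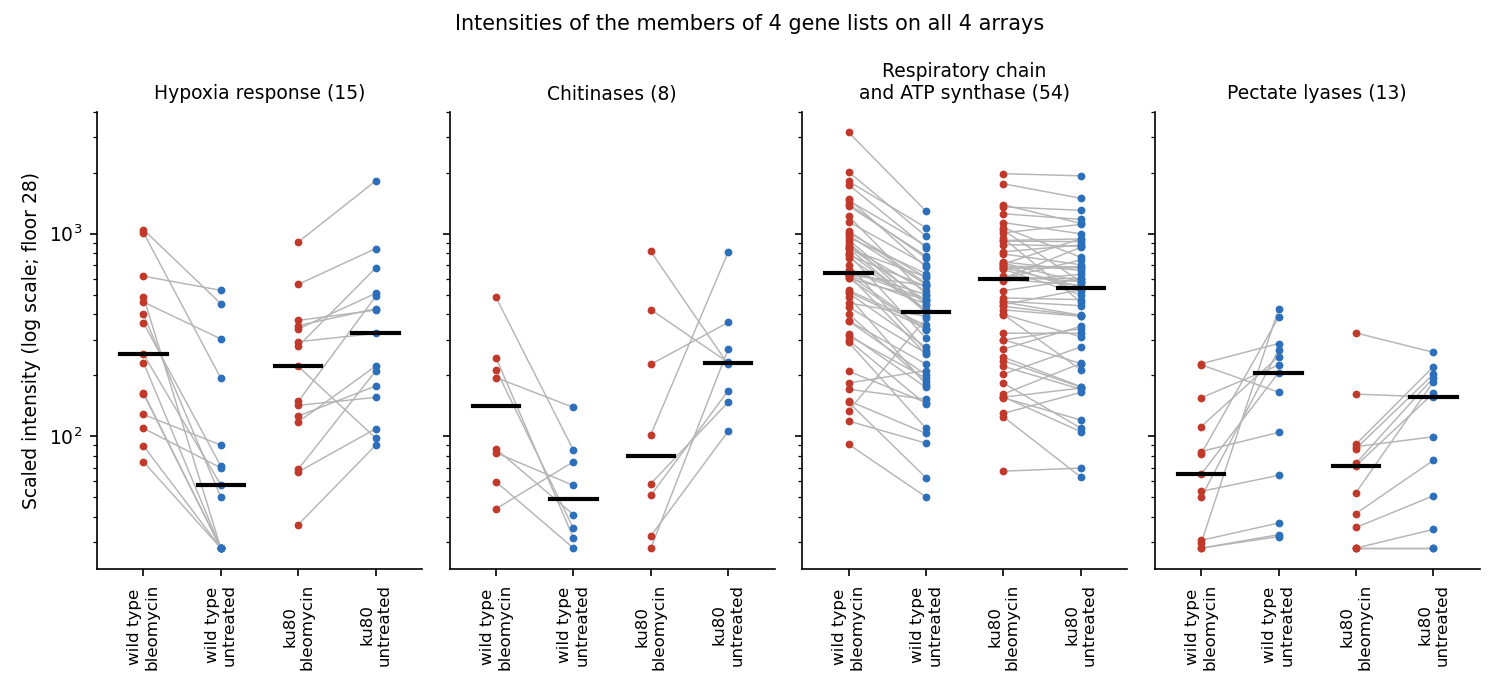
Points are the scaled intensities (log axis, floor 28) of the members of 4 gene lists on the 4 arrays, bleomycin in red and untreated in blue, with grey lines joining a gene within a genotype and black bars at the medians. The hypoxia-response and chitinase lists are lowest on the untreated wild type array, with medians of 57.4 and 49.0, the respiratory list is also lowest there (412), and pectate lyases are highest there (206).

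Genes of oxidative stress and detoxification were higher in part. AT2G21640, which encodes a mitochondrial protein known to be raised by oxidative stress, stood at 375 with bleomycin and at the floor without it, at least 13.4-fold higher, and it was higher by 2.60 on the log2 scale in ku80 as well. Methionine sulfoxide reductases, which repair oxidised methionine, included MSRB9 at 1394 with bleomycin and 450 without and MSRB3 at 154 with and 75.9 without, while MSRB5 was at 678 with and 813 without. Among 11 glutathione transferases, which attach glutathione to reactive compounds, 4 were 2-fold higher and none 2-fold lower. GSTU25 was at least 4.78-fold higher, and GSTU27 was at 617 with bleomycin and 243 without. Only 1 of 25 UDP-glycosyltransferases was 2-fold higher and 1 lower, with a median of -0.01. The cytochrome P450 genes went both ways, with CYP71B23 at 406 with bleomycin and 70.0 without and CYP71B22 at 32.7 with and 144 without. Universal stress proteins followed no single direction: 3 of 15 were 2-fold higher (2 with the brightness trend subtracted), among them AT1G09740 (481 with bleomycin, 96.7 without), and AT3G62550 was lower (187 with, 635 without).

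Nuclear genes for the mitochondrial respiratory chain were higher as a body. Of 54 measured genes for complexes I to IV and ATP synthase, 52 lay above 0 and 16 were 2-fold higher, with a median log2 ratio of 0.84 and intensities of 641 with bleomycin and 412 without at the list's medians. The complexes differed little in their medians: 0.81 for 27 genes of complex I, 0.89 for 3 of complex II, 0.85 for 11 of complex III, 0.89 for 9 of complex IV and 0.72 for 4 of ATP synthase. The complex I gene AT5G18800 had 489 with bleomycin and 180 without (log2 1.44). The complex III gene AT5G25450 had 291 with and 109 without, and its fellow AT4G32470 had 1485 with and 684 without. AT4G37830, for a small subunit of cytochrome c oxidase, had 3168 with bleomycin and 1292 without. The succinate dehydrogenase genes SDH2-1 and SDH2-2, near copies in function, differed, with 933 and 183 with bleomycin against 447 and 211 without.

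Besides SDH2-2 (log2 -0.20), the gene below 0 was AT3G15640, for another subunit of cytochrome c oxidase, at 134 with bleomycin and 381 without (log2 -1.51). These genes are mostly bright, and their median gene span was 1681 bases. The bins of measured genes, without plastid-encoded ones, had medians of 0.34 at intensities of 400 to 800 and 0.15 at spans of 1500 to 2000 bases. With the brightness trend subtracted the list's median was 0.62, 51 genes lay above 0 and 10 were 2-fold higher; with quantile normalization the median was 0.64. The untreated wild type array was the lowest of 4 for 46 of the 54. In ku80 the median was 0.09, with 36 genes above 0. How much of the wild type difference is array brightness was not tested further.

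Cytosolic ribosomal protein genes, which lie in the same range of brightness, lay nearer 0. Of 117 measured genes 91 lay above 0, with a median of 0.35, but none was 2-fold higher and 2 were 2-fold lower, AT3G28500 (56.8 with bleomycin, 193 without) and AT5G58420 (305 with, 662 without). With the brightness trend subtracted their median was 0.07 and 70 lay above 0. The highest ratio was 0.98, for AT2G32220.

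Genes for protein entry and folding in the endoplasmic reticulum were higher. Of 19 measured genes 17 lay above 0 and 8 were 2-fold higher, with a median of 0.63. After the brightness trend was subtracted the median was 0.61 and 4 were 2-fold higher. BZIP60, a transcription factor that switches on chaperone genes when unfolded protein builds up, had 502 with bleomycin and 182 without (log2 1.46). The chaperone genes CRT1b, for a calreticulin, and ATERDJ3B, for a DnaJ protein, had 1015 and 585 with bleomycin, against 504 and 277 without. The translocon and signal peptidase genes moved alike: AT3G60540, for a Sec61 beta subunit, had 121 with bleomycin and 40.9 without, and AT2G22425, for a signal peptidase subunit, had 806 with and 378 without. DER2.1, a Derlin gene of the export of misfolded protein, was below 0, at 80.1 with bleomycin and 109 without. In ku80 the list's median was 0.32, with 15 of 19 above 0.

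Genes that remove proteins and cell contents were higher in smaller numbers. The 26S proteasome, the cell's main protease, had 7 of 10 measured genes above 0 and 3 at least 2-fold higher, with a median of 0.51; with the brightness trend subtracted 2 were 2-fold higher and the median was 0.44. Its maturation factor gene AT1G67250 had 1065 with bleomycin and 368 without, RPN12a of the regulatory lid had 721 with and 308 without, and AT5G23540, for the deubiquitinating subunit, had 566 with and 274 without. Plant U-box ligases had a median of -0.14 and none was 2-fold higher.

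Autophagy genes were above 0 in 9 of 10 cases, with a median of 0.57 and of 0.56 with the brightness trend subtracted. The ATG8 genes, whose products coat the autophagosome, supplied the 3 that were 2-fold higher: ATG8H (322 with bleomycin, 121 without), APG8A (622 with, 234 without) and ATG8B (314 with, 135 without). ATG8E, another member, was lower by 0.18 on the log2 scale. All 3 measured senescence-associated genes were 2-fold higher, and for all 3 the untreated wild type array was the lowest of 4. Between the 2 untreated arrays their median difference was 1.45 on the log2 scale, ku80 over wild type. In ku80 their median log2 ratio was 0.90, with 2 of 3 above 0. SAG101, an acyl hydrolase that also acts in immune signalling, had 262 with bleomycin and 51.6 without, SAG29, of the SWEET sugar transporter family, had 160 with and 49.7 without, and YLS5 had 349 with and 120 without.

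Defence-related families split by family. Chitinases, which cut fungal walls, had 7 of 8 genes above 0 and 5 at least 2-fold higher. AT2G43620 had 244 with bleomycin and 31.4 without, and AT3G47540 had 484 with and 85.3 without. These genes were again lowest on the untreated wild type array in 6 of 8 cases, and the list's median in ku80 was -1.53. AT3G47540 was the exception among the highest, with a log2 ratio of 1.85 in ku80.

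Thaumatin-like genes went mostly the other way. Of 11 measured, 4 were 2-fold lower and 9 below 0, with a median of -0.47. AT4G38660 was at the floor with bleomycin and at 229 without, at least 8.19-fold lower, and ATLP-1 was at 28.7 with and 147 without. OSM34, an osmotin gene of the same family, had 2129 with bleomycin and 881 without. Plant defensins, small antifungal peptides, gave no 2-fold difference in either direction among 5 genes; the near-identical copies PDF1.2 and PDF1.2b had opposite signs (0.96 and -0.76), and their separate values are uncertain. The 6 WRKY factors, regulators of defence, also held none.

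Lipid transfer genes held both extremes. Of 13 measured genes 7 were 2-fold higher and 2 were 2-fold lower, with a median of 1.01. AT4G22470 had 525 with bleomycin and 107 without, AT4G12500 was 5.02-fold higher, and AT4G12490, its neighbour and close copy, had 318 with and 83.3 without. AT2G10940 had 185 with bleomycin and 1038 without, and AT5G48490 had 40.3 with and 249 without. Berberine bridge enzyme-like genes, oxidases some of which act on wall fragments, were 2-fold higher in 5 of 11 cases. AT1G26380 was at least 4.51-fold higher, and AT5G44400 was lower, at 32.7 with bleomycin and 104 without. Of these 11 genes 5 were above the floor on both arrays. The untreated wild type array was the lowest of 4 for 7 of them, and the list's median in ku80 was -0.51. Class III peroxidases, secreted enzymes of wall cross-linking, had 4 of 37 genes 2-fold higher and 5 lower. AT5G64100 had 498 with bleomycin and 153 without, AT4G30170 had 1253 with and 420 without, and AT4G26010, a root-expressed member, had 49.7 with and 238 without.

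**Figure D4:**
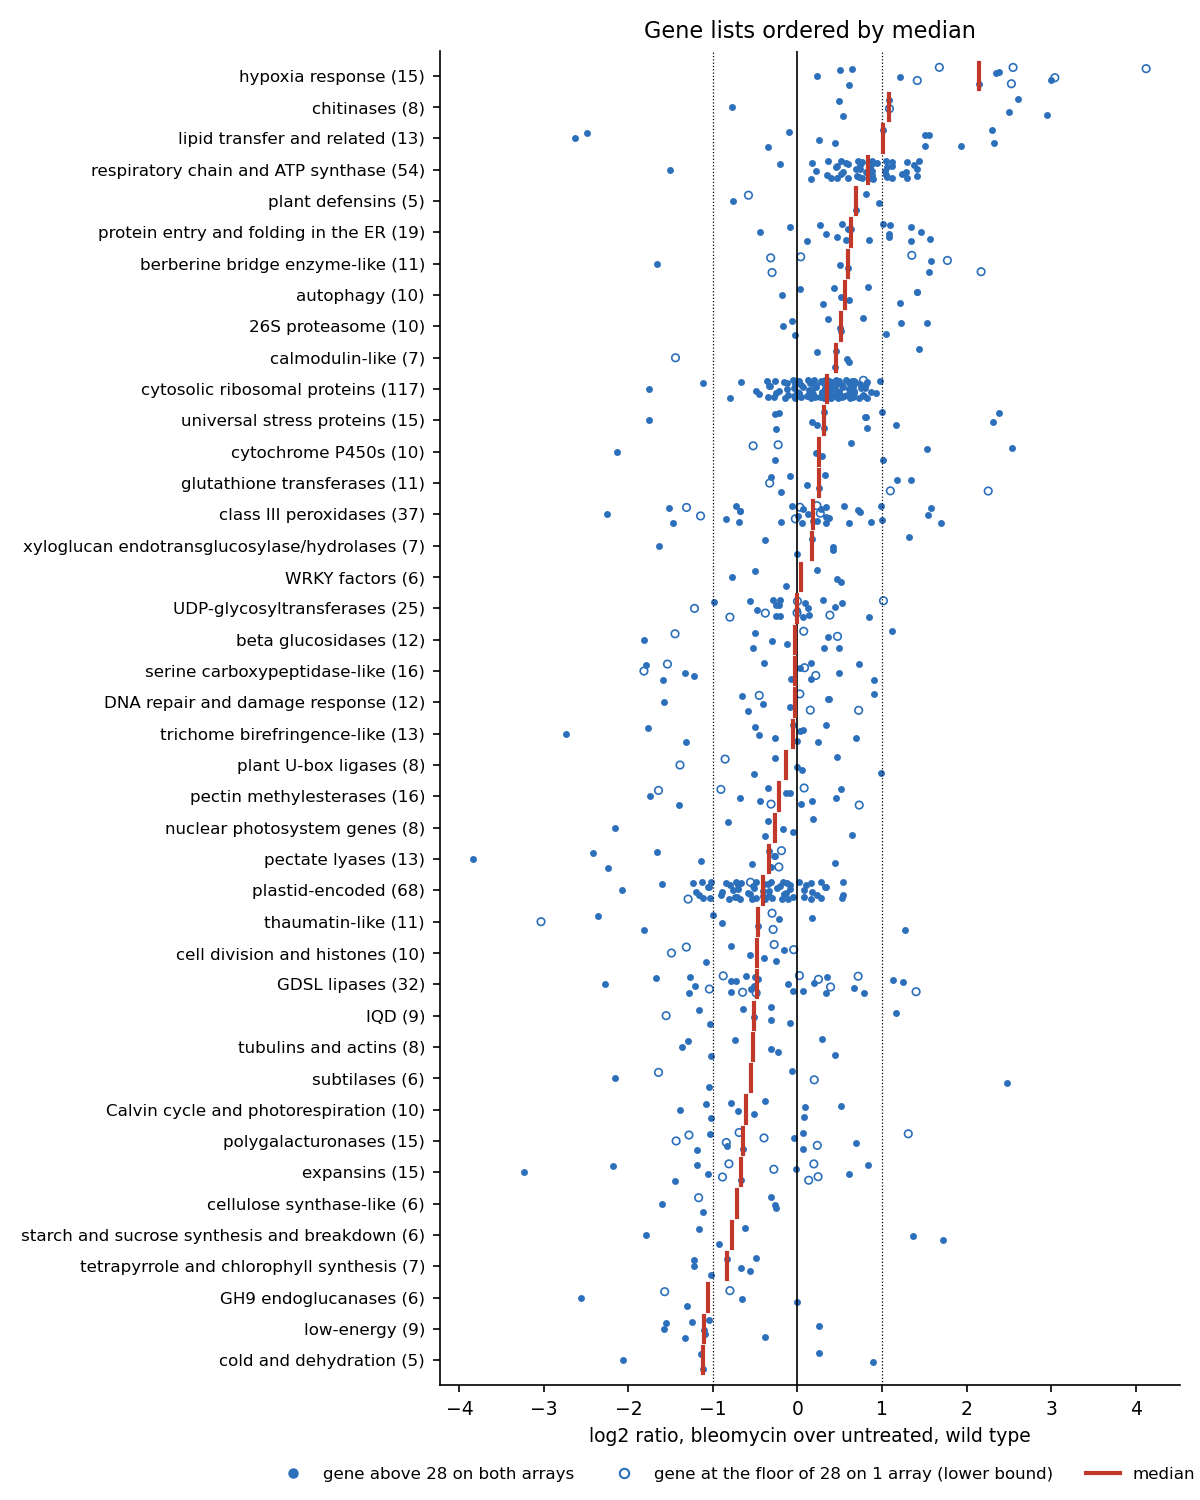
Each row is a gene list with at least 5 measured genes (number in brackets), 1 list being left out, ordered by median, and each point is the log2 ratio of 1 gene with bleomycin over untreated in wild type; open circles are lower bounds, red bars are medians and dotted lines mark 2-fold. Hypoxia-response genes top the list at 2.15, respiratory genes form a tight group around 0.84, and GH9 endoglucanases, low-energy markers and cold genes lie lowest, at medians of -1.05, -1.11 and -1.11.

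Genes of chlorophyll synthesis were lower without exception among those measured. All 7 lay below 0 and 3 were 2-fold lower, with a median of -0.84, and of -0.87 with the brightness trend subtracted. PORB, which reduces protochlorophyllide in the light, had 412 with bleomycin and 965 without. CHLM, a methyltransferase of the magnesium branch, had 213 with and 496 without, and HEME1, for an earlier enzyme shared with haem synthesis, had 71.8 with and 146 without. HEMB1, for a still earlier enzyme, had 313 with bleomycin and 460 without (log2 -0.56). The ku80 median was -0.65, with all 7 below 0.

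Carbon fixation and photorespiration followed with 7 of 10 genes below 0, 3 of them 2-fold lower, and a median of -0.61. The median was -0.81 and 1 of the 10 lay above 0 once the brightness trend was subtracted. SBPASE, for a phosphatase of the Calvin cycle, had 527 with bleomycin and 1070 without, PRK, for phosphoribulokinase, had 977 with and 1395 without, and the glycine cleavage gene AT1G11860 had 379 with and 995 without. Rubisco activase did not follow, as given above. Among 8 nuclear photosystem genes only LHCB4.2 was 2-fold lower, at 91.4 with bleomycin and 408 without, while LHCB4.1, a family member, stood at 1767 with and 1831 without. PSAE-1, for a subunit of photosystem I, had 2447 with bleomycin and 1566 without. The list's median was -0.26, and -0.62 with the trend subtracted, since these genes are bright.

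Plastid-encoded genes, which were read through an oligo-dT primer that favours tailed RNA, lay lower on the whole, with 53 of 68 below 0, 12 at least 2-fold lower and a median of -0.41. With the brightness trend subtracted the median was -0.62, 5 of the 68 lay above 0 and 13 were 2-fold lower. The photosystem I gene psaA had 532 with bleomycin and 1220 without, and rbcL, for the large Rubisco subunit, had 293 with and 608 without. The NADH dehydrogenase-like gene ndhE had 132 with bleomycin and 556 without (log2 -2.07), the lowest of the plastid genes. Of the 6 plastid genes for ATP synthase 3 lay above 0, among them atpB at 3023 with bleomycin and 2080 without and atpE at 2460 with and 1966 without, but 1 remained above 0, atpB at 0.07, with the trend subtracted. In wild type and in ku80 no plastid gene was 2-fold higher.

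Cell wall genes of the loosening and pectin-cutting families were lower. Expansins, which let walls yield, had 5 of 15 genes 2-fold lower, none 2-fold higher, and a median of -0.67. EXPA4 had 74.9 with bleomycin and 205 without, EXPA15 had 65.4 with and 149 without, and EXLB1 had 36.9 with and 168 without. Not all followed: EXLA1 had 825 with bleomycin and 541 without, and EXLA2 had 80.6 with and 45.2 without. Pectate lyases, which cut the pectin backbone, had 12 of 13 genes below 0 and 5 that were 2-fold lower. Of these 13 genes, 11 were above the floor on both arrays. AT3G27400 had 49.8 with bleomycin and 267 without, AT1G04680 had 81.7 with and 386 without, AT3G53190 had 64.9 with and 206 without, and AT3G07010 had 112 with and 247 without. The family's median was modest, at -0.33, because 7 members differed by less. The untreated wild type array was the highest of 4 for 10 of 15 expansins and 10 of 13 pectate lyases, against 30.4% of all measured genes. The drug and the state of that untreated pool cannot be told apart here either.

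Related wall families gave the same picture in part. All 6 GH9 endoglucanases, enzymes of cellulose trimming, were below 0 and 3 were 2-fold lower. Only 4 of the 6 were above the floor on both arrays. The others were at the floor with bleomycin, so they could only be below 0. GH9C2 had 87.2 with bleomycin and 216 without. Of 15 polygalacturonases 4 were 2-fold lower and AT2G43880 was at least 2.48-fold higher, and of 16 pectin methylesterases 3 were 2-fold lower, led by AT3G10720 (115 with bleomycin, 386 without). All 6 cellulose synthase-like genes were below 0, 3 by 2-fold or more, with CSLC5 at 48.2 with and 104 without. Of these 6 genes, 5 were above the floor on both arrays, and the other could only be below 0. Trichome birefringence-like genes, which acetylate wall polymers, were 2-fold lower in 3 of 13 cases, with TBL36 at 60.0 with bleomycin and 204 without. The xyloglucan enzymes opposed each other, XTH18 being at 1413 with bleomycin and 566 without and XTH16 at 107 with and 331 without. The untreated wild type array was the highest of 4 for all 6 GH9 endoglucanases, 10 of 15 polygalacturonases and 7 of 16 pectin methylesterases. It was also highest for 4 of 6 cellulose synthase-like, 6 of 13 trichome birefringence-like and 3 of 7 xyloglucan enzyme genes. The same limit of 1 untreated pool holds for these families.

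Secreted hydrolases held a mixed set. Of 16 serine carboxypeptidase-like genes 6 were 2-fold lower and none 2-fold higher, with scpl25 at 71.7 with bleomycin and 249 without and SCPL45 at 40.7 with and 123 without. Subtilases, another family of secreted proteases, were lower in SBT1.3 (52.0 with bleomycin, 232 without), SBT4.12 and ATSBT5.2 and higher in SBT3.5 (215 with, 38.5 without). GDSL lipases had 6 of 32 genes 2-fold lower, led by AT4G18970 (79.7 with bleomycin, 386 without), and 3 higher. Among 12 beta glucosidases BGLU28 had 52.3 with bleomycin and 185 without, BGLU33 was at least 2.73-fold lower, and BGLU25 had 280 with and 129 without.

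Genes of energy status and carbohydrate use moved in opposing ways. Low-energy markers, which plants raise in darkness or sugar shortage, were 2-fold lower in 7 of 9 cases, with a median of -1.11. AT3G15450 had 540 with bleomycin and 1282 without, AT2G20670 had 64.9 with and 195 without, and AKINBETA1, a subunit of the SnRK1 energy-sensing kinase, had 117 with and 243 without. The ku80 median was -0.82, with all 9 below 0. ATSPS4F, for sucrose-phosphate synthase, had 58.1 with bleomycin and 202 without, and SBE2.2, for a starch branching enzyme, had 64.1 with and 144 without. AMY1, for an alpha-amylase, had 154 with bleomycin and 46.6 without, APL3, for a starch synthesis subunit, had 98.5 with and 38.2 without, and cwINV6, a cell wall invertase gene, had 157 with and 31.8 without.

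Cold and hormone genes were few among those named. COR15B, a cold-induced chloroplast protein gene, had 28.9 with bleomycin and 121 without, COR27 had 37.5 with and 81.3 without, and DI19, for a drought-induced zinc finger protein, had 496 with and 1092 without, but LTI30, a dehydrin gene, was above 0 at 89.5 with and 48.3 without. GH3.3, whose product conjugates auxin to amino acids, had 266 with bleomycin and 79.3 without, while the Aux/IAA gene IAA18 had 233 with and 209 without. Calmodulin-like genes were mostly above 0, in 6 of 7 cases, with CML41 at 228 with bleomycin and 84.0 without and CML30 at least 2.72-fold lower. IQD genes, whose products bind calmodulin and microtubules, were below 0 in 8 of 9 cases, 3 of them 2-fold lower, and IQD23 was higher at 85.6 with bleomycin and 38.3 without.

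Of the 25 highest and 25 lowest ratios among named genes measured on both sides, several belong to none of these lists. Higher were AT3G60420, of the phosphoglycerate mutase family (546 with bleomycin, 38.9 without), AT3G15650, of the alpha/beta hydrolase family (305 with, 40.7 without), AT5G27760, of the hypoxia-responsive HIG1 family (1558 with, 245 without), and AT4G39670, for a glycolipid transfer protein (436 with, 63.9 without). In ku80 their log2 ratios were 1.88, 2.14, 0.49 and -0.73 in that order. AT1G26250, for an extensin-like proline-rich protein, was at least 11.6-fold higher in wild type, and AT5G60250, a RING-type zinc finger gene, at least 5.94-fold higher.

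Lower among them were AT5G07030, for an aspartyl protease (29.3 with bleomycin, 155 without), AT2G05790, for a glycosyl hydrolase of the beta-glucanase family (143 with, 769 without), and AT1G67870 (97.8 with, 508 without). At the floor with bleomycin were AT4G29030, for a glycine-rich wall-type protein, at least 8.43-fold lower, AT5G44680, of the DNA glycosylase family of base excision and not in the repair list above, at least 6.61-fold lower, and AT1G30820, for CTP synthase, which supplies a nucleotide, at least 5.26-fold lower. AT4G21650 and AT2G39850, both subtilase genes, were at least 7.06-fold and 5.44-fold lower.

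The remaining genes of those ranks have thinner annotation. Higher were AT1G10340, for an ankyrin repeat protein (261 with bleomycin, 46.7 without), and AT5G52760, of a family that binds heavy metals (209 with, 40.3 without). AT5G48020, of the oxoglutarate-dependent dioxygenase family, had 326 with bleomycin and 61.5 without. Lower were AT3G56370, for a receptor-like kinase with leucine-rich repeats (31.3 with, 175 without), and AT2G30600, for a BTB domain protein (37.8 with, 166 without). The FLZ zinc finger family supplied one gene on each side: AT3G22550 had 348 with bleomycin and 75.0 without, and AT1G22160 was at least 6.27-fold lower. AT1G68490, with 56.5 with bleomycin and 329 without, was the only one of the 25 lowest that did not lie below 0 in ku80.

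The lower end of the ranking was shared with ku80 more widely than the upper end, as counts with no test. Of the 25 lowest genes 24 also lay below 0 in ku80 and 19 were 2-fold lower there, while of the 25 highest 16 lay above 0 in ku80, 9 were 2-fold higher and 2 were 2-fold lower. Over all genes past 2-fold in wild type the gap was smaller: 362 of the 469 higher genes (77.2%) lay above 0 in ku80 and 479 of the 586 lower genes (81.7%) lay below 0, against 46.8% of all measured genes on either side.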

How the data were processed

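ATH1 arrays measure RNA with sets of short oligonucleotide probes. The authors deposited linear intensity values, 1 per probe set and array, in a table of the series; the mean after trimming 2% of values at each end was 100 on every array, and the summarising software was not given in the sources used here. The 64 control probe sets were left out. For scaling, the brighter 50% of probe sets were compared with their geometric mean across the 4 arrays, and each array was divided by its median ratio (factors 0.977 for wild type with bleomycin and 1.02 for wild type without), values under 28 were raised to 28, and log2 ratios of bleomycin over untreated were taken, with 2-fold as the threshold for counts. With 1 array per group no test was run. Precision is limited by the number of arrays.

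Names came from the platform table, with symbols brought up to date from RefSeq genes of TAIR10.1: 13513 had 1 gene, 503 had several and 8730 are unnamed here; 13436 matched RefSeq. A gene with several probe sets was read from the brightest. Gene span is the annotated length in that table. Of the 7986 measured genes 6850 have only a locus code as name; their roles in the text are background knowledge of the locus.

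Named genes are the 25 highest and 25 lowest ratios above the floor on both arrays, the 10 highest and 10 lowest bounds, and members of the gene lists; not every one is printed. The comparison and all 46 gene lists were chosen with earlier results of these data known. Lists were written as locus codes or symbol patterns once the names in the platform table had been seen, since planned patterns on symbols alone found too few genes. Planned families with under 3 named and measured genes, such as NAC, ERF, MYB and heat shock proteins, are not described, and 1 list is not reported here.

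The calculation was tested on simulated data, where 200 of 200 changed probe sets were recovered with 0 false calls. The changes put in lay well above the 2-fold threshold, in bright probe sets and with little noise. That run checks the arithmetic only and gives no rate of false calls for the real arrays. Python 3.11.15, numpy 2.4.6, pandas 2.3.3, scipy 1.17.1, statsmodels 0.14.6 (lowess with a fraction of 0.3 for the brightness trend) and matplotlib 3.10.9 were used. Scaling, floor, filter and probe set choices were varied.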

Additional observations from a re-analysis of the deposited data

Results flagged for a closer look

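Among genes picked by rank or by gene list, 13 differed by at least 2-fold with bleomycin in opposite directions in the 2 genotypes. All 13 were higher with the drug in wild type and lower with it in ku80. The ranks held 70 genes and the 46 lists held 721 measured genes, with overlap. Measured genes outside that pick were not counted here, so no share over all 7986 measured genes stands beside the 13. Over all measured genes 5.87% were 2-fold higher in wild type and 5.13% were 2-fold lower in ku80. Because the ranks and lists were chosen with wild type results known, the shared direction of the 13 cannot be judged against a background. A gene outside the pick, AT1G58420, also met the rule, at log2 1.77 in wild type and -1.34 in ku80. In all 13 the untreated value was also lower in wild type than in ku80. Given the bleomycin values of these genes, that follows from the rule of opposite 2-fold ratios and is no separate observation. The drug and the state of the untreated pools cannot be told apart. The difference was not tested, since each group has 1 array. For 5 genes, AT1G02360, AT5G66985, AT1G26390, AT1G26250 and AT4G39675, untreated wild type lay under the floor, and the size given is a lower bound (at least that far apart). Given as the ku80 log2 ratio minus the wild type one, the chitinase genes AT2G43620, AT1G02360 and AT4G01700 differed by -5.95, -2.81 and -2.80. The hypoxia-response genes AT1G19530, AT5G66985 and AT4G27450 differed by -4.07, -2.72 and -2.22. The peroxidase genes AT5G64100 and AT4G08780 differed by -3.35 and -2.90, the berberine bridge enzyme-like gene AT1G26390 by -2.43 and the lipid transfer gene AT5G55450 by -3.05. The auxin-conjugating gene GH3.3 differed by -3.57, the extensin-like gene AT1G26250 by -4.72 and AT4G39675 by -5.04. AT2G43620 had 101.7 with bleomycin and 811 without in ku80, against 244 with and 31.4 without in wild type. GH3.3 had 165 with bleomycin and 584 without in ku80, against 266 with and 79.3 without in wild type.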

How the results depend on the processing

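No paired analysis was possible because each group has 1 array. The brightness trend was subtracted as an alternative chosen after seeing the data; the others were planned. At a 3-fold threshold 214 probe sets were higher and 344 lower with bleomycin, and at a floor of 56 there were 789 at least 2-fold lower. The median log2 ratio of the hypoxia-response list was 1.53 at a floor of 56 and 1.22 over genes above the floor on both arrays, that of the thaumatin-like list was -1.20 at a floor of 56, and that of the cold and dehydration list was -0.43 at a floor of 14; a floor changes which genes count as measured and how far a bound can reach. The hypoxia-response list's median then no longer exceeded that of the senescence-associated list, which was 1.54 at a floor of 56 and 1.69 over genes above the floor. Of 70 named gene ratios 35 moved by over 1.5 times at a floor of 56 and 11 at a floor of 14, with no change of sign. Among list medians that lay near 0, those of DNA repair (-0.25 to 0.29), WRKY factors (-0.01 to 0.14), beta glucosidases (-0.30 to 0.15), pectin methylesterases (-0.50 to 0.01), plant U-box ligases (-0.20 to 0.02) and serine carboxypeptidase-like genes (-0.40 to 0.16) took both signs across settings; the other 40 kept theirs. With the brightness trend subtracted 725 of the 842 higher probe sets (86.1%) and 1084 of the 1286 lower ones (84.3%) kept their call, and the counts were 858 and 1143. Quantile normalization gave 901 and 1125, and the deposited scale without further scaling 734 and 1424. Values near the floor are limited by background, and no spread between pools could be measured.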
